A study of Mus musculus with 24 samples.

Results

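The heat shock protein and J-domain chaperone genes were examined for chromatin accessibility in sorted striatal neurons of a mouse model of Huntington's disease. They were taken as the peaks of the deposited count table whose gene symbol begins with Dnaja, Dnajb, Dnajc, Hspa, Hspb, Hspd, Hspe, Hsph or Hsp90, or is Hsf1 or Hsf2. This gave 411 of 147020 peaks, assigned to 71 genes, with 0 peaks for Hspe1 and Hsp90b1. Of the 71 genes, Hspbap1 and Hspbp1 encode proteins that bind heat shock proteins and met the rule by their symbols alone. Peaks were named for the closest annotated start, and a distal peak may act on some other gene. After a filter on low counts, 408 of the 411 peaks were tested, and 1 peak each near Dnajb9, Hspa12a and Dnajc24 was not.

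The assay was ATAC-seq, in which a transposase inserts sequencing adapters into DNA that is not tightly packed. It was run on NeuN-stained neuronal nuclei sorted from striata of C57BL/6 mice aged 12 months, with 50000 nuclei per library. There were 4 groups of 6 animals, each with 3 females and 3 males. Q140_Msh3KO animals were heterozygous for the Q140 knock-in and lacked Msh3. Q140 animals carried the same heterozygous knock-in, an expanded CAG repeat in the huntingtin gene Htt, with Msh3 present. Msh3KO animals lacked Msh3, a DNA mismatch repair gene, and had no knock-in. WT animals were wild type. The labels name no treatment, and all 4 groups shared the strain, the age and the sort. The knock-in is a constitutive allele of the mouse gene, so it was present in every cell type, and the sort set which nuclei were read.

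Heat shock proteins keep other proteins folded. Hsp70 proteins (the Hspa genes) grip exposed stretches of a client, J-domain proteins (the Dnaj genes) bring clients to Hsp70 and start its ATPase, and Hsp110 proteins (Hsph1, Hspa4, Hspa4l) reset it by exchanging its nucleotide. Hsp90 and Hsp60 act on later folding states and in mitochondria, and small heat shock proteins (the Hspb genes) hold unfolded clients. Hsf1 is the transcription factor that turns many of these genes on during proteotoxic stress, by binding repeated GAA units called heat shock elements. J-domain proteins such as human DNAJB6 and DNAJB8 slow aggregation of polyglutamine proteins in cultured cells, and this is why chaperones are of interest where huntingtin carries an expanded polyglutamine tract.

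Total counts in peaks ran from 4372251 to 11736557 per library, and the median tested chaperone peak held 19 to 47 counts per library. The labelled cell type was checked by counts at promoter peaks of marker genes. Neuronal markers (Rbfox3, Snap25, Syt1, Map2) averaged 30.6 CPM per promoter peak (CPM, counts scaled to a common library size) and markers of striatal projection neurons (such as Ppp1r1b and Drd1) averaged 26.4 CPM. Oligodendrocyte, astrocyte, microglial and endothelial markers averaged 2.47, 2.88, 3.49 and 1.16 CPM per peak, and 5 of 6 astrocyte genes had no promoter peak. Their ranges overlapped between all 4 groups. The summed oligodendrocyte list spanned 9.11 to 18.2 CPM in Q140_Msh3KO, 9.62 to 15.7 CPM in Q140, 10.1 to 15.9 CPM in Msh3KO and 9.08 to 15.4 CPM in WT animals, and its part in the results was not tested. Of 25 tested peaks across Msh3, 4 were higher in Msh3KO than in WT animals, and the Msh3 promoter peak had a log2 fold change of 0.01. The deleted part of Msh3 is not given in the sources used here, so these peaks do not check the deletion. Of 13 tested peaks across Htt, 1 intronic peak was higher in Q140 than in WT animals (0.42), and the Htt promoter peak had -0.02. Both libraries that stood apart were kept and also left out together. The library labelled Q140 F2 drew 1.47% of its counts from the X chromosome, where the other female libraries drew 1.72% to 1.94% and the male libraries 1.49% to 1.59%. Library Q140_Msh3KO M1 drew 12.7% of its counts from its 10 highest peaks. In a sorted bulk sample, a change in the share of 1 kind of neuron and a change in accessibility per neuron cannot be told apart.

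Some of the promoters hold binding sequences by which such genes are known to respond to stress, and 5 that do are shown. Each runs from 250 bases before the RefSeq start through 30 bases from it (build GRCm38.p6), lies wholly within the gene's promoter peak, and is written on the gene's strand. Hsph1 (chr5:149636286-149636565, minus strand) and Hspd1 (chr1:55087903-55088182, minus strand) hold a heat shock element of 3 units. Hspa1a (chr17:34972127-34972406, minus strand), the stress-inducible Hsp70, holds one of 2 units. Hspa5 (chr2:34771840-34772119, plus strand) and Dnajc3 (chr14:118937682-118937961, plus strand) hold the endoplasmic reticulum stress response element. Capitals mark the matched letters.
Hsph1: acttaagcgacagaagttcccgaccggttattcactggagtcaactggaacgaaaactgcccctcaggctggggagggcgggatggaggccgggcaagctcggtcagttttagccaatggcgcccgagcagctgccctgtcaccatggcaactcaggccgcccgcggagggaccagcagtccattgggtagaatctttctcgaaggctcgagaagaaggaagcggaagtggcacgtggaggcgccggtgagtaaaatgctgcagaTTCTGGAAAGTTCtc
Hspd1: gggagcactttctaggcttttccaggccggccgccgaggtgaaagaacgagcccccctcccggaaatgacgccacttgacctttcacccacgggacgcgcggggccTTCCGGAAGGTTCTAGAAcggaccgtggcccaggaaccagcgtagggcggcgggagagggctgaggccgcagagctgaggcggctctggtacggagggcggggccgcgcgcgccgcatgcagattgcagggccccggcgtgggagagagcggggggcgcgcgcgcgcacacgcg
Hspa1a: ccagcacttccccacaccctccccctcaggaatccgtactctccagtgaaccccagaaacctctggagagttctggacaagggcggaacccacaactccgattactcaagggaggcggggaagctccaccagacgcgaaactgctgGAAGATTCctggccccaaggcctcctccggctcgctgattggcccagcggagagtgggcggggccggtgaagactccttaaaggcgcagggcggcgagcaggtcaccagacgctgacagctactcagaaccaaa
Hspa5: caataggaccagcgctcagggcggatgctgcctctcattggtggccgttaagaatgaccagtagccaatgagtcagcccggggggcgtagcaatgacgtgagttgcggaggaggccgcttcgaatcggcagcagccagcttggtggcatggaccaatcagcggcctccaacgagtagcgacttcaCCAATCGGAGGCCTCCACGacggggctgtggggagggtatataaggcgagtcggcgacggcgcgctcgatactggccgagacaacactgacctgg
Dnajc3: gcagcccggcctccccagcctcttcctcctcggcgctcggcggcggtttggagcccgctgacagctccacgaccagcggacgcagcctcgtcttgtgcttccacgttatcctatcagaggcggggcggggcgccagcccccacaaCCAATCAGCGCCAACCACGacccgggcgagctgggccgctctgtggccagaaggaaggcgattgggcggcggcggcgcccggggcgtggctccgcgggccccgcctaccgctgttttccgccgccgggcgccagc

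The motifs were searched on both strands of 32851 RefSeq promoter windows of 300 bases, of which 72 belonged to 56 of the 71 genes. The 3-unit element, GAANNTTCNNGAA or TTCNNGAANNTTC, was found in 198 windows (0.603%) and in 5 of the 72 chaperone windows (6.94%), those of Hspd1, Dnajb6 and Hsph1. In Hspd1 the element occurred at 2 overlapping positions that share 8 letters. In Dnajb6 and Hsph1 the same site was counted in overlapping windows of alternative starts, so 3 of 56 genes held the element. The 2-unit element, GAANNTTC or TTCNNGAA, lies inside the longer one and was found in 15.1% of all windows and 22.2% of chaperone windows. The stress response element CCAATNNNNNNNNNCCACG, or its reverse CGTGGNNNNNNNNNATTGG, was found in 39 windows (0.119%), with Hspa5 and Dnajc3 as the 2 chaperone windows. Chaperone windows had a median GC content of 62.2%, against 52.7% for all windows. These are matches of letters, with some sites counted in several overlapping windows, and were not tested for binding.

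Of the 411 peaks, 54 (13.1%) were annotated as promoters, against 6.92% of all peaks in the table, and 74 (18.0%) lay within 1 kb of a start, against 11.4%. The 54 promoter peaks belonged to 52 genes. Another 153 peaks lay in introns and 151 between genes. Of the 71 genes, 16 had 1 peak, while Dnajb9 had 34.

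Promoters of the chaperone genes gave no call in any comparison, and the well-covered ones had narrow ranges of change. Of the 54 promoter peaks, 0 passed the adjusted p threshold of 0.05 for Q140 against WT animals in edgeR's quasi-likelihood test, and 1 had an unadjusted p under 0.05. DESeq2 and limma-voom also called 0 of 54, with 3 and 2 at an unadjusted p under 0.05. Among all 10167 tested promoter peaks of the table, 3.33% passed and 1148 had an unadjusted p under 0.05. Within 1 kb of a start, 0 of 74 chaperone peaks passed, with 2 at an unadjusted p under 0.05. Of all 16784 such peaks tested, 3.33% passed and 1897 had an unadjusted p under 0.05. At that share, sets of 54 or 74 peaks would hold few calls, so these counts of 0 say little about the genes. DESeq2 and limma-voom called 0 of 74 too, with 5 and 3. That count was 1, an intronic peak 0.146 kb from the start of Dnajc15, without Q140 F3 or without WT F2. The 40 promoter peaks with at least 10 CPM had log2 fold changes from -0.13 to 0.20 with SEs of 0.10 to 0.14, and their median was 0.02. The median over all promoter peaks of the table was 0.05.

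Hspa8, the constitutive Hsp70, had the promoter peak of highest accessibility per length among the 54, with 64.7 CPM per kb. Dnajb1, a cytosolic J-domain partner of Hspa8, followed with 43.8 CPM per kb. The Hspa8 promoter spanned 69.9, 85.6 and 89.9 CPM (lowest, median and highest of 6) in Q140_Msh3KO, 65.8, 89.4 and 97.8 CPM in Q140, 71.2, 88.7 and 101.4 CPM in Msh3KO and 64.7, 87.5 and 102.7 CPM in WT animals. The 4 ranges overlapped almost wholly, and the log2 fold change of Q140 over WT was 0.03 ± 0.11 (SE; adjusted p = 0.934). Hsf1 averaged 36.5 ± 3.71 CPM in Q140 and 37.1 ± 5.43 CPM in WT animals (SD, n = 6 each), and Hsf2, a related factor, had a log2 fold change of -0.06 ± 0.12.

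Hspa1a is the classical stress-inducible Hsp70. Its promoter had 13.7, 15.2 and 16.5 CPM in Q140_Msh3KO, 12.2, 15.1 and 16.5 CPM in Q140, 11.3, 15.5 and 18.7 CPM in Msh3KO and 13.2, 14.5 and 18.9 CPM in WT animals. The 4 ranges overlapped, with a log2 fold change of -0.02 ± 0.12 in Q140 over WT. Hspa1a and Hspa1b are near-identical neighbouring copies, so the split of reads between them is uncertain. Hsph1, the Hsp110 exchange factor whose promoter is printed above, spanned 47.6, 50.04 and 55.4 CPM in Q140 and 37.7, 47.9 and 57.4 CPM in WT animals. Hspd1, the mitochondrial Hsp60, spanned 36.7, 42.7 and 47.9 CPM in Q140 and 29.8, 38.2 and 47.8 CPM in WT animals. That peak also covers the start of Hspe1, the Hsp10 partner of Hsp60, and 12 of the 54 promoter peaks likewise held the start of another gene.

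In the endoplasmic reticulum group, Hspa5, the Hsp70 of that compartment known as BiP, spanned 41.6, 46.5 and 54.5 CPM in Q140 and 35.4, 40.9 and 47.3 CPM in WT animals. Its log2 fold change was 0.20 ± 0.10, its groups overlapped, and its adjusted p of 0.24 was the smallest of the 40 promoters with at least 10 CPM. Hsp90aa1, the inducible cytosolic Hsp90, had the highest change of the 40, also 0.20 when rounded (SE 0.11, adjusted p = 0.298). Dnajb9 (ERdj4), a J-domain partner of BiP, had a promoter change of -0.04 ± 0.10, and Dnajb11 (ERdj3), another such partner, had -0.13 ± 0.11, the lowest of the 40. The small heat shock genes Hspb1, Hspb2, Hspb3, Hspb7 and Hspb8 had promoter peaks of 1.39 to 3.58 CPM. SEs among the Hspb promoter peaks reached 0.338, against at most 0.14 in the 40 promoters with at least 10 CPM. What size of change could be detected there was not tested. Hspb6 reached 41.1 CPM, in a peak that also holds the start of Proser3.

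**Figure D1:**
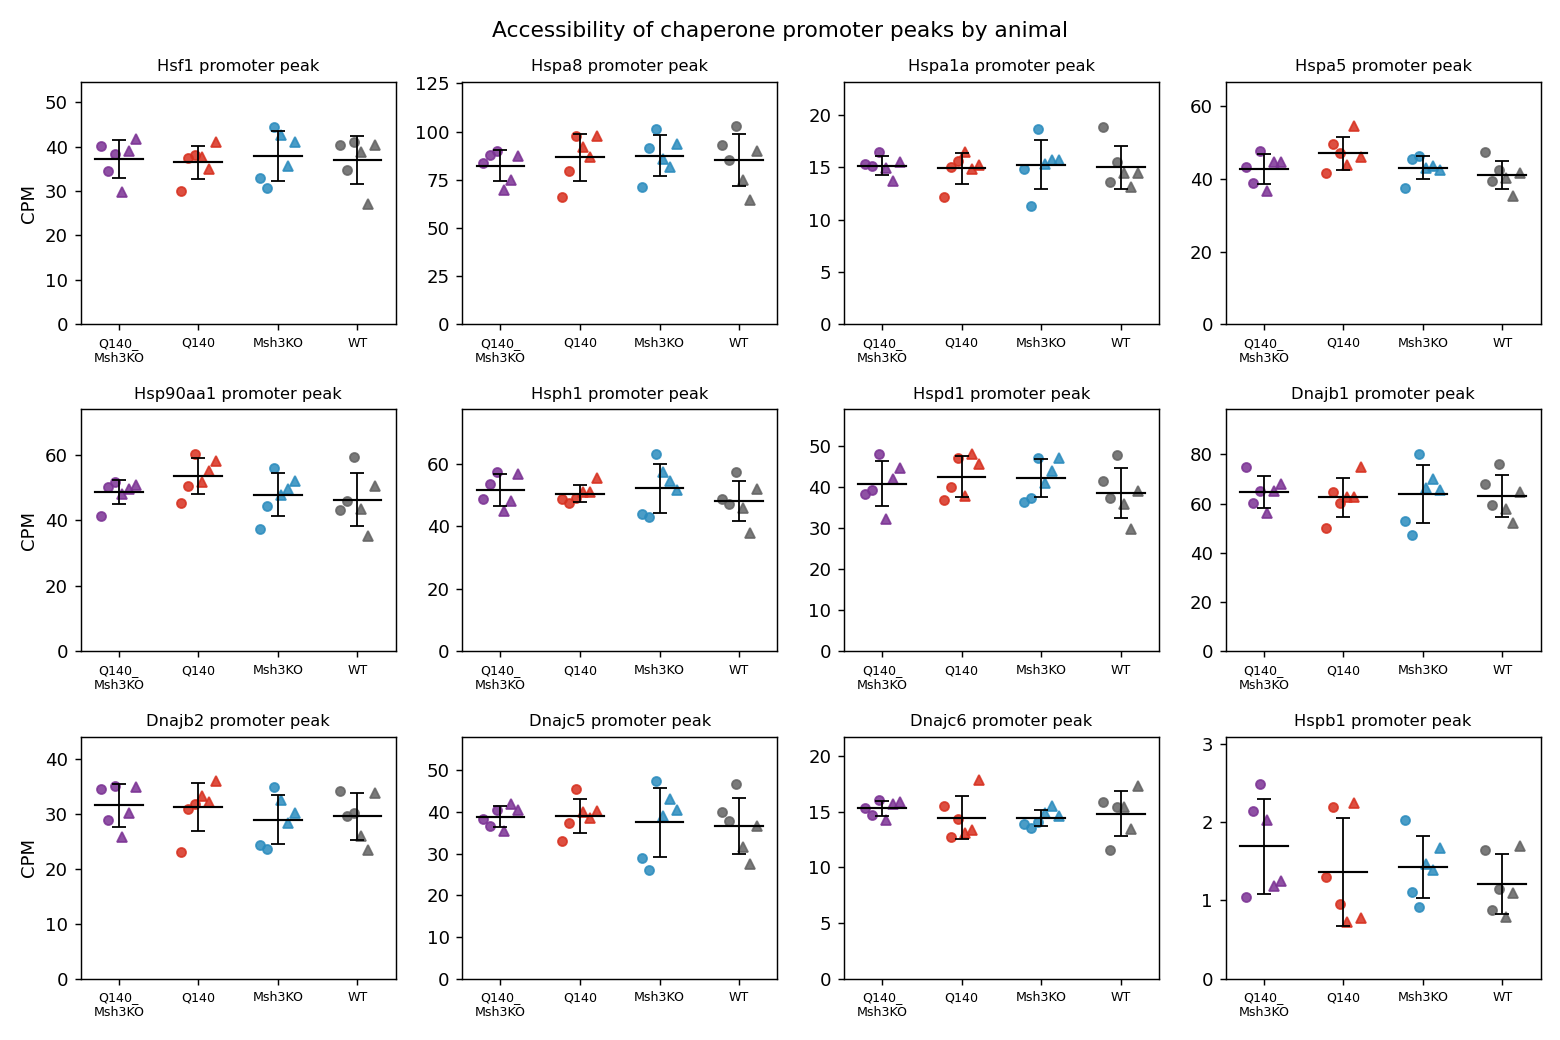
Accessibility (CPM, y axes) of 12 chaperone promoter peaks in each animal, with circles for animals labelled female, triangles for males, and bars for the mean and SD of 6 animals per genotype. The 4 genotypes overlap in every panel, and Hspa8 reaches up to 102.7 CPM.

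Chaperone peaks away from the promoters did give calls. In the whole table, too, the share called was higher there, at 11.2% over 1 kb from a start and 3.33% within 1 kb. For Q140 against WT, 45 of the 408 tested chaperone peaks passed (11.0%), in 25 genes, against 10.3% of all 146155 tested peaks. Of these, 19 were higher in Q140 (4.66% of the chaperone peaks, 4.2% of all peaks) and 26 were lower (6.37%, against 6.11% of all peaks). The shares were thus close to those of the whole table. The 45 peaks lay 1.86 to 573 kb from the assigned start, with a median of 31.2 kb, and all of them were among the 334 tested peaks over 1 kb from a start. That is 13.5% of the distal chaperone peaks, against 11.2% of all distal peaks. In 25 of the 45 peaks (55.6%) the 6 Q140 and 6 WT libraries did not overlap, against 44.6% of all 15066 called peaks, a difference that was not tested.

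Of the 45 peaks, 9 lay within the body of the chaperone gene whose name they carry. Another 13 lay within the body of a different gene and 23 lay between genes. By these positions, 8.11% of the distal chaperone peaks in the gene's own body passed, against 10.4% of all such peaks of the table. In another gene's body 17.3% passed, against 9.71%, and between genes 15.5% passed, against 12.6%, and these differences were not tested. Counts by family are given beside the 10.3% of all peaks, and differences between families were not tested. Of the Hspb peaks 1 of 40 passed, of the Hspa peaks 11 of 70, of the Dnajb peaks 13 of 96, of the Dnajc peaks 15 of 158 and of the Dnaja peaks 3 of 13. Of the 16 peaks of the Hspd, Hsph and Hsp90 genes 2 passed. Of the 9 peaks of Hspbap1 and Hspbp1, 0 passed. Of the 6 peaks near Hsf1 and Hsf2, 0 passed, with 0 at an unadjusted p under 0.05.

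**Figure D2:**
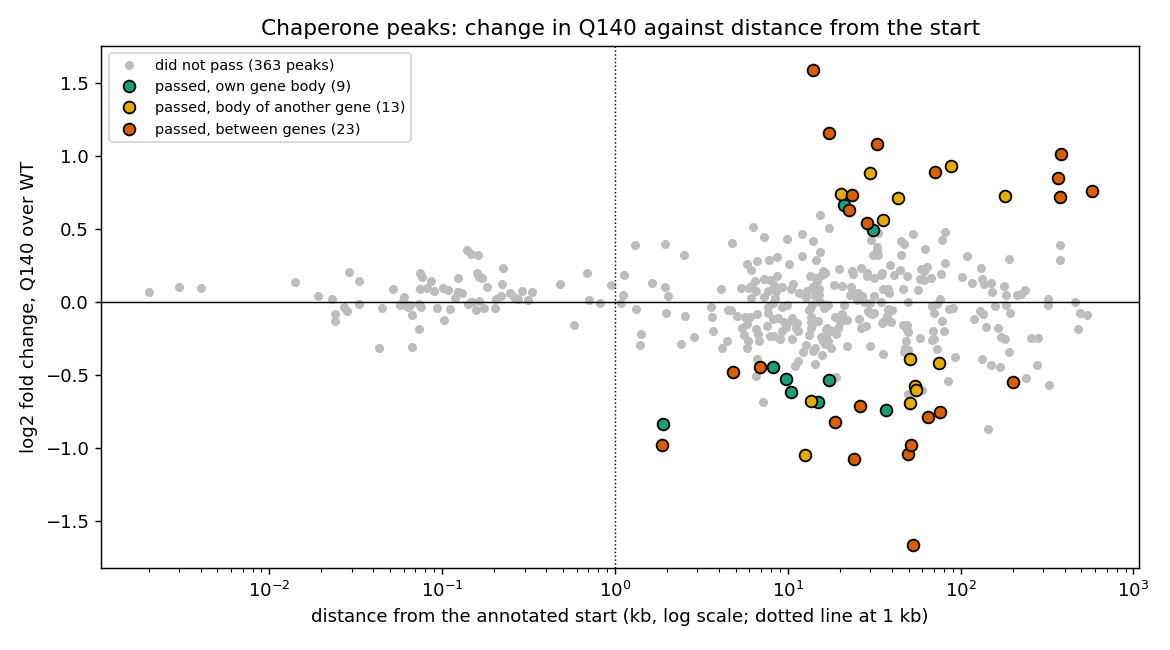
Log2 fold change of Q140 over WT (y axis) for the 408 tested chaperone peaks against distance from the annotated start (x axis, kb, log scale), with peaks past the threshold coloured by position. The 45 coloured peaks lie to the right of the dotted line at 1 kb, and the points to its left stay between -0.32 and 0.36.

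The cytosolic J-domain gene Dnaja2 had the strongest change among the chaperone peaks by p-value. Between Dnaja2 and Neto2, 3 of its distal peaks, 49.4 to 64.4 kb upstream of the Dnaja2 start, were lower in Q140. At chr8:85608028-85608523 (GRCm38, the build of all peak positions here), accessibility was 5.09, 6.16 and 9.08 CPM in Q140_Msh3KO, 2.23, 3.07 and 3.74 CPM in Q140, 4.87, 9.80 and 12.6 CPM in Msh3KO and 5.86, 10.1 and 12.4 CPM in WT animals. Every Q140 library lay below every library of the other 3 genotypes. The log2 fold change of Q140 over WT was -1.66 ± 0.21 (SE; adjusted p = 8.71e-07). The neighbouring peaks at chr8:85604582-85604980 and chr8:85619458-85620004 had changes of -1.04 ± 0.18 and -0.79 ± 0.17. At the start of Dnaja2 itself, an exonic peak had 0.17 with an adjusted p of 0.324.

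Dnajb9 showed the opposite direction. Apart from the peak at the start, its 33 tested peaks lay between Dnajb9 and Immp2l. Of the 33, 6 were higher in Q140 and 0 were lower, where 4.2% of all peaks were higher and 6.11% lower. Neighbouring peaks of 1 interval may not vary independently, and this count was not tested. The peak at chr12:44176898-44177422, 32.9 kb downstream of the start, held 3.73, 5.30 and 7.82 CPM in Q140_Msh3KO, 4.84, 6.86 and 7.45 CPM in Q140, 1.77, 3.33 and 4.33 CPM in Msh3KO and 2.17, 3.20 and 3.66 CPM in WT animals. Q140 and WT did not overlap there, and the log2 fold change was 1.08 ± 0.19 (adjusted p = 6.43e-05). A peak 28.5 kb away also did not overlap (0.54 ± 0.14). A second group of 3 peaks lay 366 to 383 kb downstream, with changes of 0.72 to 1.01. The 6th peak, 573 kb away, had 0.76 ± 0.23. Its call ended without Q140 F3 or M1 or WT M2 or M3, with an adjusted p of up to 0.0922.

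**Figure D3:**
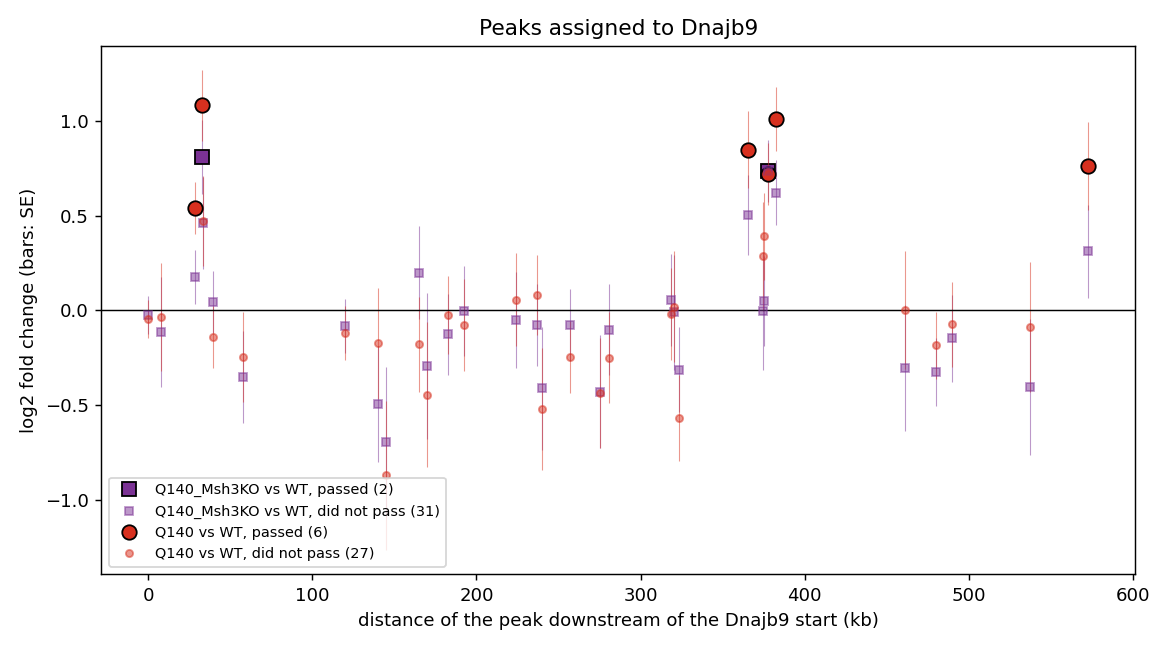
Log2 fold changes with SE bars (y axis) for the 33 tested peaks assigned to Dnajb9, against distance downstream of its start (x axis, kb), for Q140_Msh3KO over WT (squares) and Q140 over WT (circles). The peak at the start lies near 0 in both comparisons, and the larger symbols that passed fall at 28.5 to 32.9 kb, at 366 to 383 kb and at 573 kb.

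Other endoplasmic reticulum genes had 1 or 2 peaks that passed. Dnajc10 (ERdj5), which reduces disulfide bonds of proteins bound for degradation, had an intronic peak 36.9 kb from its start with 10.04, 11.5 and 12.1 CPM in Q140 and 14.1, 18.7 and 23.8 CPM in WT animals. The groups did not overlap and the change was -0.74 ± 0.13 (adjusted p = 8.3e-05). Hspa13, an Hsp70 relative of microsomes, had 2 higher peaks, of 0.63 ± 0.16 and 1.16 ± 0.29. Peaks named for Dnajc1 and Dnajc3 were lower, at -0.75 ± 0.21 and -0.42 ± 0.13, the second in an intron of Uggt2. Over the 12 endoplasmic reticulum genes with peaks, 9 of 103 tested peaks were higher and 3 lower, 6 of the 9 being those of Dnajb9. The share called was 11.7%, against 10.3% of all peaks (4.2% higher and 6.11% lower), and differences from these were not tested.

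In the mitochondrial group, 6 of 59 tested peaks were lower and 0 were higher. The share called, 10.2%, was close to the 10.3% of all peaks (4.2% higher and 6.11% lower). Hspa9, the mitochondrial Hsp70 called mortalin, had 3 of these, between 18.8 and 51.4 kb upstream of its start. The nearest had 4.02, 4.85 and 5.14 CPM in Q140 and 7.18, 8.11 and 11.1 CPM in WT animals, with no overlap and a change of -0.82 ± 0.14 (adjusted p = 3.69e-05). The others had -1.07 ± 0.20 and -0.98 ± 0.17. Of the remaining 3, Dnajc28 had 2 in introns of Gart (-1.05 ± 0.19 and -0.68 ± 0.23), and the call of the second ended under 22 of 33 alternatives. Dnajc19, whose product belongs to the mitochondrial import motor, had 1 at 200 kb, in the interval that leads to Sox2 (-0.55 ± 0.15).

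Genes of vesicle and endosome trafficking were mixed, with 3 of 41 tested peaks higher and 4 lower (17.1% called, against 10.3% of all peaks, a difference that was not tested). Dnajc13, an endosomal J-domain protein, had a peak 1.86 kb upstream of its start, the nearest to a start among the 45. It held 3.90, 5.22 and 7.41 CPM in Q140_Msh3KO, 2.52, 3.22 and 3.90 CPM in Q140, 5.03, 6.28 and 7.67 CPM in Msh3KO and 5.36, 6.197 and 7.25 CPM in WT animals. Q140 lay wholly below WT, with a change of -0.98 ± 0.17 (adjusted p = 5.14e-05), while the Dnajc13 promoter peak had 0.09 ± 0.11. Dnajc5, the cysteine string protein of synaptic vesicles, had a lower intronic peak (-0.53 ± 0.13). Dnajc6, the clathrin uncoating factor auxilin, had a higher peak 23.6 kb from its start (0.73 ± 0.25) and a lower intronic peak 9.76 kb from it (-0.53 ± 0.16).

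Hspa8 belongs to the same group and had 3 called peaks, all in introns of Clmp, 35.4 to 50.6 kb upstream of the Hspa8 start. At chr9:40757582-40758259, the values were 11.1, 12.3 and 14.5 CPM in Q140_Msh3KO, 12.8, 16.9 and 17.8 CPM in Q140, 9.16, 10.4 and 12.3 CPM in Msh3KO and 7.95, 9.99 and 11.6 CPM in WT animals. Q140 and WT did not overlap, and the change was 0.71 ± 0.12 (adjusted p = 4.73e-05). A second peak 35.4 kb away was higher by 0.56 ± 0.14, and the third, 50.6 kb away, was lower by -0.39 ± 0.13. The call of the third ended under 20 of 33 alternatives, and its adjusted p reached 0.161 without WT F3.

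Among genes known to modify polyglutamine aggregation, 3 of 68 tested peaks were higher and 8 were lower. The share called was 16.2%, against 10.3% of all peaks (4.2% higher and 6.11% lower), and this difference was not tested. Of the 8 lower calls, 5 ended under some of the alternatives, 2 of them under 20 or more of 33. Of these 8, 5 carried the name Dnajb8. Dnajb8 is expressed chiefly in testis, its own promoter peak had 1.87 CPM, and 3 of its 5 peaks lay in introns of Eefsec, the gene of a selenocysteine elongation factor. Their changes ran from -0.71 to -0.48. The other 3 lower peaks were the Hspa8 peak above, a Dnajb2 peak in its 3' untranslated region (-0.45 ± 0.13), and an Hsph1 intronic peak (-0.62 ± 0.18). Dnajb2 encodes a neuron-enriched J-domain protein. The 3 higher peaks were the Hspa4 peak and 2 Hspa8 peaks. Of the 9 promoter peaks of this list, 0 passed, against 3.33% of all promoter peaks of the table. Dnajb6 had no peak within 1 kb of its start. In the list of Hsf1-inducible genes 0 of 13 promoter peaks passed, and 3 of 68 peaks at any position were higher and 3 lower (8.82% called, against 10.3% of all peaks). The other lists had 7 (endoplasmic reticulum), 7 (mitochondrial) and 5 (vesicle) promoter peaks, with 0 passing. At the 3.33% of all promoter peaks, lists of 5 to 13 peaks would hold few calls or none. These promoter counts thus say little about the genes of the lists.

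The other called peaks were scattered. Dnajc2, a ribosome-associated J-domain protein, had a higher peak (0.66 ± 0.16) and a lower peak (-0.83 ± 0.15) in its own introns. It lies 13 Mb from Htt on chromosome 5, the chromosome that carries the knock-in. Dnajc24, needed for diphthamide synthesis, had 2 higher peaks within Dcdc5 (0.93 ± 0.21 and 0.72 ± 0.14). Hspb1, the small heat shock protein Hsp27, had a higher peak at the end of Ywhag (0.74 ± 0.15), with 12.2, 14.2 and 16.6 CPM in Q140 and 7.90, 8.28 and 9.75 CPM in WT animals, which did not overlap. Hspa4, an Hsp110 relative, had a higher peak (0.89 ± 0.18). The atypical Hsp70 genes Hspa12a and Hspa12b had a higher and a lower intronic peak (0.49 ± 0.17 and -0.69 ± 0.13). Hsp90aa1 had a lower upstream peak (-0.44 ± 0.14), and Dnajc5b had the highest fold change of the 45, 1.59 ± 0.37, at a peak of 1.24 CPM.

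Of the 45 calls, 31 held under each alternative that gave them a value, of 33 in processing or in the libraries used. The 14 that did not were those of Dnajb2, Hsp90aa1, Dnajc3, Hspa12a, Dnajc1, Dnajc19, Hsph1, both Dnajc6 peaks, the weaker Dnajc28 peak, the 573 kb Dnajb9 peak, the third Hspa8 peak and 2 of the Dnajb8 peaks, with adjusted p-values of up to 0.193. The Dnajc19 call ended without WT F3 (adjusted p = 0.0939). The Dnajc1 call ended without Q140 M1, WT F3 or WT M1, and the Dnajb2 call without Q140 F1, Q140 M1, WT F3, WT M3 or both libraries that stood apart. The others of the 14 ended under 5 to 22 alternatives. With single libraries left out the count ran from 34 (without WT M3) to 45. Without the library labelled Q140 F2 and Q140_Msh3KO M1, 38 chaperone peaks were called, 18 higher and 20 lower.

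Q140 animals with and without Msh3 were compared next. For Q140_Msh3KO against Q140, 4 of 408 chaperone peaks passed (0.98%), against 0.529% of all peaks, and all 4 were higher. Each was among the peaks that were lower in Q140 than in WT animals. Since the 2 comparisons share the Q140 libraries, a low Q140 level enters both. The Dnaja2 peak at chr8:85608028-85608523 had a change of 1.10 ± 0.21 (adjusted p = 0.0079), and Q140_Msh3KO stood above Q140 in all 6 against all 6 libraries. Against WT the same peak had -0.55 ± 0.19 (adjusted p = 0.223). The others were the peaks of Dnajc13 (0.72 ± 0.17, adjusted p = 0.0299), Dnajc2 (0.65 ± 0.16, adjusted p = 0.0334) and Hspa9 (0.60 ± 0.14, adjusted p = 0.0251).

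At the Hspa9 peak the levels were 5.89, 7.51 and 9.11 CPM in Q140_Msh3KO, against 4.02, 4.85 and 5.14 CPM in Q140 animals, without overlap. At the Dnajc2 peak they were 8.71, 11.4 and 13.5 CPM in Q140_Msh3KO, against 5.55, 7.18 and 8.80 CPM in Q140 animals, and the ranges met. The 3 lower peaks of smallest p did not pass. They were the Hspa8 peak at chr9:40757582-40758259 (-0.37 ± 0.12), the Hspb1 peak (-0.45 ± 0.15) and the higher Dnajc2 peak (-0.45 ± 0.16), with adjusted p-values of 0.152, 0.178 and 0.231. The count of 4 rested on individual libraries. It was 1, the Dnaja2 peak, without Q140_Msh3KO F1, F2, M1 or M2, without Q140 M2, or without both libraries that stood apart, and it was 2 without Q140 M1 or M3.

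**Figure D4:**
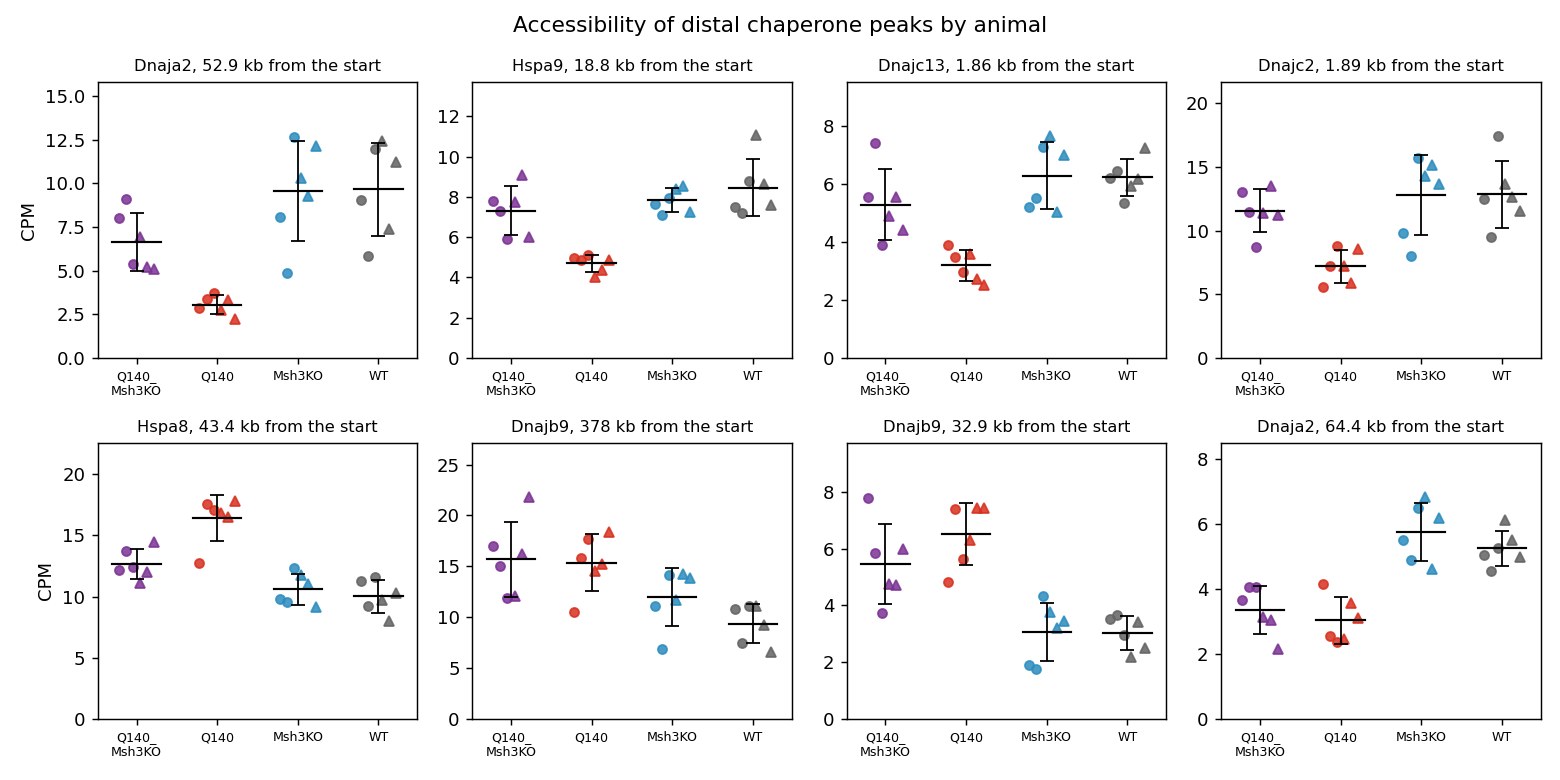
Accessibility (CPM, y axes) of 8 distal chaperone peaks in each animal, with circles for animals labelled female, triangles for males, and bars for the mean and SD of 6 animals per genotype. At the Dnaja2 peak 52.9 kb from the start every Q140 animal lies below the Q140_Msh3KO, Msh3KO and WT animals, while at the Dnajb9 peaks Q140_Msh3KO and Q140 lie together.

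Compared with WT, Q140_Msh3KO animals had 2 called chaperone peaks (0.49%), against 0.525% of all peaks, and both belonged to Dnajb9 and were higher. The peak at chr12:43831787-43832611, 378 kb from the start, had 11.9, 15.6 and 21.8 CPM in Q140_Msh3KO, 10.5, 15.6 and 18.4 CPM in Q140, 6.87, 12.7 and 14.2 CPM in Msh3KO and 6.57, 9.995 and 11.1 CPM in WT animals. Q140_Msh3KO lay above WT without overlap, with a change of 0.74 ± 0.16 (adjusted p = 0.0267). The peak 32.9 kb from the start had 0.81 ± 0.19 (adjusted p = 0.0382). Of the next in line, a Dnajc24 peak had 0.53 ± 0.14 and lower peaks of Dnajc16, Dnaja2 and Dnajc28 had -0.65 ± 0.17, -0.63 ± 0.17 and -0.67 ± 0.18, with adjusted p-values of 0.0624 to 0.0751. The count was 0 without Q140_Msh3KO F1 or M3 or WT M2 or M3, 1 without WT F2, F3 or M1, and 4 without Q140_Msh3KO M1.

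Q140_Msh3KO against Msh3KO asks for the effect of the knock-in where Msh3 is absent, and shares no library with Q140 against WT. Here 1 of 408 peaks passed (0.245%), against 0.116% of all peaks. It was the Dnaja2 peak at chr8:85619458-85620004, with 2.15, 3.38 and 4.06 CPM in Q140_Msh3KO and 4.597, 5.84 and 6.83 CPM in Msh3KO animals, which did not overlap. Its change of -0.78 ± 0.17 (adjusted p = 0.0376) stood beside -0.79 ± 0.17 for Q140 over WT. The call was lost without Q140_Msh3KO F1, F3, M1, M2 or M3, without Msh3KO F3, M1 or M3, without WT M3, with both stand-apart libraries left out, and with only the compared genotypes in the fit. The next peaks by p did not pass: Dnajb9 at 32.9 kb (0.76 ± 0.19), Dnajc6 at 23.6 kb (0.82 ± 0.26) and Hspa8 at 35.4 kb (0.44 ± 0.15) on the higher side, and Hspa9 at 24.3 kb (-0.60 ± 0.19) and Dnaja2 at 52.9 kb (-0.58 ± 0.19) on the lower.

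The 45 peaks chosen for passing in Q140 against WT largely kept their direction without Msh3. In Q140_Msh3KO against Msh3KO, 43 of 45 (95.6%) had the same sign, against 90.6% of all 15066 peaks called in Q140 against WT and 58.4% of the chaperone peaks that were not called. Their median change in the original direction was 0.27 in this second pair and 0.73 in the first, where size was part of the choice. Over all 15066 called peaks these medians were close to the same, at 0.26 and 0.70. The exceptions in sign among the 45 were Hsph1, at 0.38 ± 0.18, and the Hspb1 peak, at -0.02 ± 0.15. The difference between the knock-in effects with and without Msh3 was tested as an interaction. Of the 408 chaperone peaks, 0 passed, against 0.0226% of all peaks. At an unadjusted p under 0.05 there were 32 of the 408, against 10696 of all 146155 peaks. DESeq2 and limma-voom also called 0 chaperone peaks, with 27 and 30 at an unadjusted p under 0.05. The smallest p belonged to the Hsph1 intronic peak, with an interaction of -0.99 ± 0.26 (adjusted p = 0.164), followed by the Dnaja2 peak at 52.9 kb, with -1.08 ± 0.28 (adjusted p = 0.184).

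**Figure D5:**
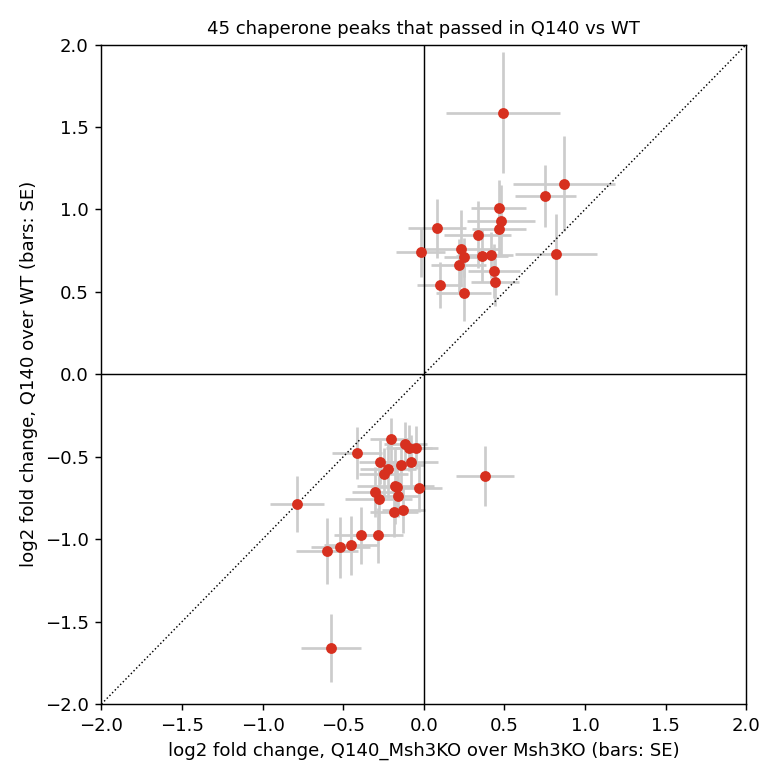
Log2 fold changes with SE bars for the 45 chaperone peaks that passed in Q140 against WT, with Q140_Msh3KO over Msh3KO on the x axis and Q140 over WT on the y axis. Most points lie in the 2 quadrants of equal sign and farther from 0 on the y axis, on which they were chosen, than on the x axis.

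Without the knock-in, lack of Msh3 gave no call. In Msh3KO against WT, 0 of 408 passed, against 0.013% of all peaks. At an unadjusted p under 0.05 were 3 higher and 10 lower chaperone peaks, against 2612 higher and 2263 lower of all 146155 peaks. DESeq2 and limma-voom likewise called 0, with 12 and 14 at an unadjusted p under 0.05. The higher peaks of smallest p were named for Hspd1, Hspa8 and Dnajb9 (0.59 ± 0.23, 0.59 ± 0.25 and 0.38 ± 0.17). The lower ones were named for Dnajc16, Dnajb9 and Dnajc9 (-0.53 ± 0.17, -0.60 ± 0.25 and -0.58 ± 0.25).

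Across all 5 genotype comparisons, the interaction and the comparison by sex, 0 of the 54 chaperone promoter peaks passed. The Q140 effect in animals labelled female minus that in males passed at 0 of 408 chaperone peaks, and at 0% of all peaks. At an unadjusted p under 0.05 there were 14 of the 408, against 4806 of all 146155 peaks. DESeq2 and limma-voom gave 0 too, with 6 and 16. At the promoters the median difference was -0.20, with 45 of 54 below 0. Over all 10167 tested promoter peaks of the table the median was -0.13, with 7217 below 0. The median promoter change of Q140 over WT was -0.05 in females and 0.15 in males, and over all promoter peaks -0.01 and 0.12. The share of all counts that fell in promoter peaks moved with it. In females it spanned 19.3% to 21.6% in Q140 and 19.2% to 21.6% in WT libraries. In males it spanned 21.1% to 22.3% in Q140 and 18.4% to 21.2% in WT libraries, and its part in these medians was not tested.

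Partner genes of the chaperone network were counted for comparison. They comprised cochaperones, nucleotide exchange factors, the Cct ring and prefoldin, and 45 of them had peaks. For Q140 against WT, 11 of 278 tested peaks were higher and 12 lower (8.27%), below the 10.3% of all peaks. Of 40 promoter peaks 0 passed, against 3.33% of all promoter peaks. These differences were not tested. An exonic peak of Cdc37l1, a relative of the Hsp90 cochaperone Cdc37, lay 252 bases from the start and was higher (0.36 ± 0.12, adjusted p = 0.0407). Among the called were an intronic peak of Fkbp5, the Hsp90 cochaperone induced by glucocorticoids, at 1.15 ± 0.19, and an intronic peak of Trap1, the mitochondrial Hsp90, at -1.01 ± 0.18. The Fkbp5 peak was the single partner peak called in Q140_Msh3KO against Q140, at -0.83 ± 0.18 (adjusted p = 0.0194).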

How the data were processed

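ATAC-seq counts per peak for 24 libraries were deposited by the authors as raw counts with peak positions, annotation and nearest gene. The submitters' processing notes list the build GRCm38 and, with no version, featureCounts, MACS2, Picard, SAMtools and BWA. Members and gene lists were chosen with earlier results of these data known. The test was edgeR's (version 4.0.16, under R 4.3.3): TMM scaling, filterByExpr with a count minimum of 10, a quasi-likelihood fit with genotype and sex over all 24 libraries, and Benjamini-Hochberg adjustment over all tested peaks at 0.05. CPM were computed from the counts and the TMM-adjusted totals, and errors of log2 fold changes are SE. Interaction and sex contrasts came from the same counts. DESeq2 1.42.0 and limma 3.58.1 (voom), other scalings, filters, models and left-out libraries served as alternatives. Peaks named are those past the threshold (except 1 that is not reported here), the 3 of smallest p in each direction per genotype comparison, listed chaperone promoters, and the highest and lowest levels. The Cdc37l1, Dnajc15, Dnajb11 and further promoter values were added after they were seen, as were promoter counts under the alternatives and the fit with leading numbers. All 60 library pairs within genotypes differed beyond counting noise. The labels do not say that animals were separate litters, so p-values measure the spread between these samples. On simulated data for Q140 against WT (145951 peaks), the fit recovered 70% and 56% of peaks changed by 1 and -1 on the log2 scale. Of those changed by 0.6 and -0.6 it recovered 12% and 8.16%, and it made 5 false calls. About 50 peaks were changed at each size and sign, so far fewer passed than the 10.3% of the real comparison. The adjusted threshold was thus stricter there, and these shares do not give the detection rate in the real data.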

Additional observations from a re-analysis of the deposited data

Results flagged for a closer look

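Among 296 groups of 6 libraries over 74 chaperone peaks, 9 held 1 library far from the rest (Dixon's test), where chance sets apart about 1 in 20 groups. In Q140_Msh3KO, library F1 had 5.73 CPM at the Dnaja2 peak 49.4 kb from the start, where the others had 2.53 to 3.70 CPM, and 41.5 CPM at the Hsp90aa1 promoter, where the others had 48.0 to 51.8 CPM. Library F3 had 54.9 CPM at the Dnajb5 promoter, where the others had 38.8 to 43.0 CPM. Library M1 had 62.3 CPM at the Hsp90ab1 promoter, where the others had 79.1 to 87.7 CPM.

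In Q140, library F1 stood low at 3 peaks. It had 9.92 CPM at the Dnajb9 peak 383 kb from the start (others 17.8 to 22.5 CPM), 34.3 CPM at the Hspa2 promoter (others 45.1 to 51.2 CPM) and 12.8 CPM at the Hspa8 peak 43.4 kb from the start (others 16.5 to 17.8 CPM). In Msh3KO, library F1 had 29.9 CPM at the Dnajb5 promoter (others 38.3 to 43.3 CPM). In WT, library F3 had 43.8 CPM at the Dnajc19 peak 200 kb from the start (others 21.0 to 29.4 CPM).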

How the results depend on the processing

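The called peaks and the peaks of smallest p in each comparison kept their direction under each alternative run on them. Of the 54 promoter peaks, 34 changed sign in Q140 against WT under some alternative, each within 0.186 of 0 on the log2 scale in the reported fit, and 0 were called under any. For Q140 against WT, the count of 45 chaperone peaks was 38 to 44 under other scalings, filters, tools, models or without Q140 F2 and Q140_Msh3KO M1, and 34 to 45 with single libraries left out. For Q140_Msh3KO against Q140, the count of 4 became 1 without Q140 F2 and Q140_Msh3KO M1, and 1 to 5 with single libraries left out. For Q140_Msh3KO against WT, the count of 2 became 1 with limma-voom and 0 to 4 with single libraries left out. For Q140_Msh3KO against Msh3KO, the count of 1 became 0 with only the compared genotypes in the fit, 0 without Q140 F2 and Q140_Msh3KO M1, and 0 to 1 with single libraries left out. Within 1 kb of a start the Q140 against WT count was 0 to 1. Counts for Msh3KO against WT, the interaction, the sex contrast and the promoters were 0 in every run, and the sex contrast was refitted without each of the 12 Q140 and WT libraries only.

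Over 36 same-numbered pairs the correlation of deviations ran from -0.438 to 0.448, with 11 above 0.1. Differently numbered pairs were not compared, so whether replicate numbers pair the samples was not settled. With the replicate block the counts were 44 (Q140 against WT), 4 (Q140_Msh3KO against Q140), 3 (Q140_Msh3KO against WT, adding a lower Dnajc28 peak), 1 (Q140_Msh3KO against Msh3KO), and 0 for Msh3KO against WT, the interaction and the promoters. The cause of these differences was not tested. The descriptions of 13 libraries begin with 1 of 5 numbers shared between genotypes, and the labels do not say what these mark. In an alternative chosen after seeing the data, limma-voom with this number as a random block (correlation 0.159), 44 of the 45 called peaks passed and the 45 kept their direction. The counts were 45 (Q140 against WT), 5 (Q140_Msh3KO against Q140), 1 (Q140_Msh3KO against WT), 1 (Q140_Msh3KO against Msh3KO) and 0 for the rest. What size of change could be detected at median peak counts of 19 to 47 was not tested in the real data. The smallest change among the 45 called peaks was 0.39 in absolute size on the log2 scale.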
